A study of Mus musculus with 3 samples.

Results

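Cells of the periodontal ligament at postnatal day 25 were divided by their transcripts of Cxcl12, which encodes a secreted chemokine, and the 470 Cxcl12-positive cells were set against the 572 Cxcl12-negative cells of the same library. Droplet counts were of unique molecular identifiers (UMIs). A ligament cell had 500 or more genes, no more than 15% of its UMIs from mitochondrial genes, at least 2 UMIs of Aspn and at least 1 of Tnn. They also had under 5 UMIs of Ibsp and under 10 of Dspp per 10000, and none of Ptprc, Pecam1 or Epcam. Positive cells held at least 2 Cxcl12 UMIs and negative cells held 0. Of the 5657 cells kept at this age, 1313 met the ligament conditions, and the remaining 271 of these held 1 Cxcl12 UMI and entered neither set. The series holds 15912 barcodes in 3 libraries. Because Cxcl12, Aspn and Tnn chose the cells, their values are given as a description only.

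The cells came from mandibular molars of mice with the genotype Col1a1-GFP; Cxcl12-creER; R26R(tdTomato/+). GFP in these mice is driven by Col1a1 regulatory sequence. The Cre recombinase is driven by Cxcl12 and acts only after tamoxifen, after which the cell and its descendants carry tdTomato. When tamoxifen was given, and how many animals were pooled, is not given in the sources used here. Pulp and periodontium were dissociated together and cells with GFP, tdTomato or both were sorted, so the share of Cxcl12-positive cells describes the sort and not the tissue. Positive and negative cells share genotype, age, sort and library. With 1 library there was no replicate check and no test across samples, and the intervals below cover counting error alone. In the 2 libraries from day 6 the same conditions were met by 125 cells of Cxcl12-GFP, of which 37 were negative, and by 8 cells of Cxcl12-creER, and these were not compared.

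The periodontal ligament is the collagen-rich tissue that suspends the tooth root in its bony socket. Its fibroblasts make type I and type III collagen, periostin and small proteoglycans, and turn this matrix over quickly. CXCL12 signals through CXCR4, is scavenged by ACKR3, and in bone marrow marks perivascular stromal cells that support blood stem cells. Cxcl12 lies at 117168535 to 117181367 on the plus strand of mouse chromosome 6 in build GRCm38.

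Against the other 4344 kept cells, the ligament cells were rich in Postn (periostin), at 13407 against 1641 CPM (UMI counts of the gene scaled to 1000000 UMIs of the set), and in Scx, a tendon and ligament transcription factor, at 89.3 against 14.1 CPM. Tnmd, a late tendon and ligament gene, was at 60.6 against 60.0 CPM and did not set them apart. Other listed ligament genes went both ways. Fmod (443 against 163 CPM) and Ostn (18.5 against 3.54 CPM) were higher in the ligament cells. Bmp3 (16.9 against 157 CPM) and Pthlh (15.9 against 93.8 CPM) were lower in them. Depth was alike, with a median of 18453.5 UMIs in positive cells, 18768.5 in negative cells and 18734 in the cells with 1 Cxcl12 UMI. The median mitochondrial share was 4.80% in positive and 4.07% in negative cells. The 3 libraries shared between 0 and 5 barcodes in any pair.

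Positive cells held 283 CPM of Cxcl12 and cells with 1 UMI held 51.1 CPM. Cxcl12-positive cells with neither Aspn nor Tnn, called the outside cells here, numbered 635 and held 1594 CPM. Macrophages, chosen by at least 5 UMIs of the C1q genes and no Aspn, and not known as a source of Cxcl12, held 33.4 CPM. At least 1 Cxcl12 UMI was found in 18.6% of the 231 macrophages (median depth 13964 UMIs) and in 56.4% of ligament cells (median depth 18704). For at least 2 UMIs, the condition for a positive cell, the shares were 4.33% and 35.8%.

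Transcripts of both reporters followed the division, in opposite directions. Cells were sorted for GFP, tdTomato or both, which ties the 2 reporters, so the directions are not separate results. At least 5 GFP UMIs were found in 172 of 470 positive cells, 36.6% (95% Clopper-Pearson interval 32.2 to 41.1), in 59.8% of cells with 1 Cxcl12 UMI and in 401 of 572 negative cells, 70.1% (66.2 to 73.8). At least 5 tdTomato UMIs were found in 182 positive cells, 38.7% (34.3 to 43.3), in 21.0% of cells with 1 UMI and in 92 negative cells, 16.1% (13.2 to 19.4). Macrophages gave 2.16% for GFP and 2.60% for tdTomato. With each cell thinned to 5000 UMIs, which left out 3 negative cells, GFP was at 24.5% and 53.8% in positive and negative cells, and tdTomato at 29.1% and 13.9%. Read from the reporter side, positive cells made up 61.2% of the 250 cells with tdTomato alone and 21.9% of the 654 with GFP alone. They made up 35.8% of the 81 with both and 44.2% of the 328 with under 5 UMIs of each.

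**Figure D1:**
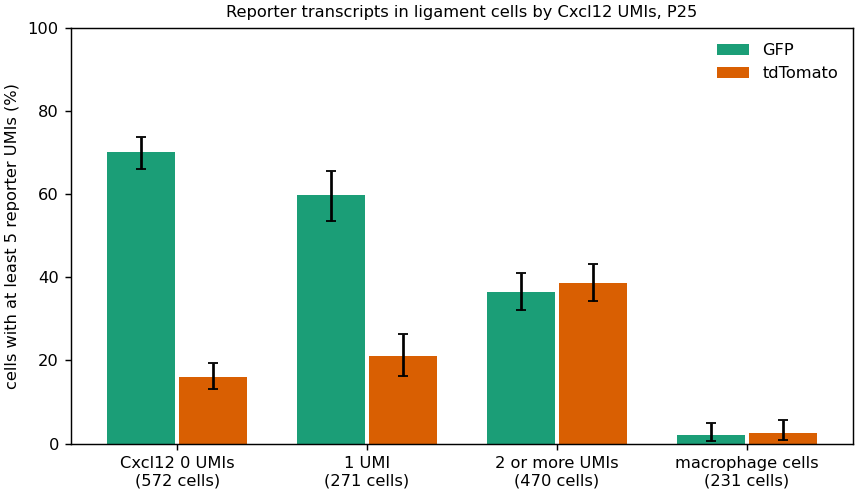
Share of cells (%) with at least 5 UMIs of GFP or tdTomato, in ligament cells with 0, 1 or at least 2 Cxcl12 UMIs and in macrophages at day 25. Bars start at 0 and error bars are 95% exact binomial intervals. GFP goes from 70.1% to 36.6% across the ligament sets and tdTomato from 16.1% to 38.7%.

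Of 5430 genes with a mean of at least 20 CPM over the positive and negative sets, 141 (2.6%) were more than 2-fold higher in positive cells and 35 (0.645%) more than 2-fold lower, on the scale of log2(CPM + 1), 176 (3.24%) in all. These shares are the background for the counts of listed genes given below. The median log2 ratio over all 5430 genes was 0.10, and 3573 of them had a ratio above 0 and 1857 below. A single cell held over 25% of the UMIs of Rgs5 and Pmch on the higher side. It did so too for 4 haemoglobin genes among the 35 lower ones, and 30 genes were lower when 3 cells that each carry most of a gene were left out.

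Apart from haemoglobin genes, which were kept out of the leading genes, the lower side included secreted and membrane proteins of ligament and tendon-like fibroblasts. Sema3c, a secreted guidance protein, was at 64.4 CPM in positive and 268 CPM in negative cells, 4.16-fold lower (counting interval 3.81 to 4.55). It had a UMI in 153 positive and 384 negative cells. Lrrc15, a membrane protein of activated matrix-making fibroblasts, was at 82.1 and 320 CPM, a log2 difference of -1.95. Mgp, which encodes an inhibitor of mineralisation, was at 777 and 2403 CPM, 3.09-fold lower (3.01 to 3.17). The median positive cell held 0.740 Mgp UMIs per 10000 and the median negative cell 18.1. C1qtnf3, a secreted C1q and TNF-related protein, was at 33.6 and 132 CPM, and Crabp2, which carries retinoic acid to the nucleus, at 67.3 and 229 CPM. Stc2, a secreted stanniocalcin, was at 38.8 and 127 CPM. Podn, a small leucine-rich proteoglycan, was at 34.5 and 93.4 CPM. The log2 ratios of Stmn4, Tspan2, Plpp1 and Fndc1, which are also among the 12 lowest, ran from -1.89 to -1.30.

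Postn was the most abundant of the genes more than 2-fold lower, at 7993 CPM in positive and 17558 CPM in negative cells (log2 ratio -1.14). The median positive cell held 46.0 Postn UMIs per 10000 and the median negative cell 155, yet the 10th to 90th percentiles, 7.67 to 174 and 33.2 to 303, overlapped broadly. The transcription factor Scx was at 52.6 and 120 CPM, and the matrix protease Htra1 at 1036 and 2179 CPM. The ligament markers did not move as a block. Of 16 listed, 9 passed the filter and were not used in the rule: Postn and Scx were more than 2-fold lower, and Tnc (tenascin C, 318 and 121 CPM) and the proteoglycan gene Ogn (1001 and 489 CPM) more than 2-fold higher. The calls of Postn, Scx and Ogn were not kept in every alternative setting, where their log2 ratios reached -0.78, -0.87 and 0.74. That of Tnc was at least 1.12 in all. Tnmd was at 76.7 and 46.6 CPM. The median log2 ratio of the 9 was -0.52. The 2 ligament genes of the rule were also lower in positive cells, Aspn at 3166 against 6766 CPM and Tnn at 910 against 2334 CPM.

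Fibrillar collagens and the enzymes that process them were mostly lower in positive cells. Of 19 listed genes 18 passed the filter, 16 had a ratio below 0, against 1857 of all 5430 genes, and the median was -0.44. Col1a1 was at 32372 and 52232 CPM (-0.69), Col1a2 at -0.64, Col3a1 at -0.64 and Col11a1, which seeds thin fibrils, at -0.70. The collagen cross-linking enzyme genes were divided. Loxl2 was at 191 and 392 CPM and Lox at 268 and 500 CPM, whereas Loxl1, which acts mainly on elastin, was at 98.7 and 37.7 CPM. Loxl2 and Loxl1 were the only members of the list past 2-fold. The listed genes together took 91640 CPM in positive and 142349 CPM in negative cells, and a smaller share for these genes raises the CPM of all others.

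Small leucine-rich proteoglycans and matricellular proteins, by contrast, went both ways, with 5 of 19 genes more than 2-fold higher, 4 more than 2-fold lower and a median of -0.10. Over all 5430 genes, 141 (2.6%) were higher and 35 (0.645%) lower. Higher were Wisp2 (1.91), Thbs1 (1.90), Tnc (1.39), Prelp (1.32) and Ogn (1.03). Lower were Mgp, Podn, Spon2 (431 and 1014 CPM) and Ecm2 (53.5 and 115 CPM). Dcn, the decorin gene, was at 3519 and 3408 CPM.

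**Figure D2:**
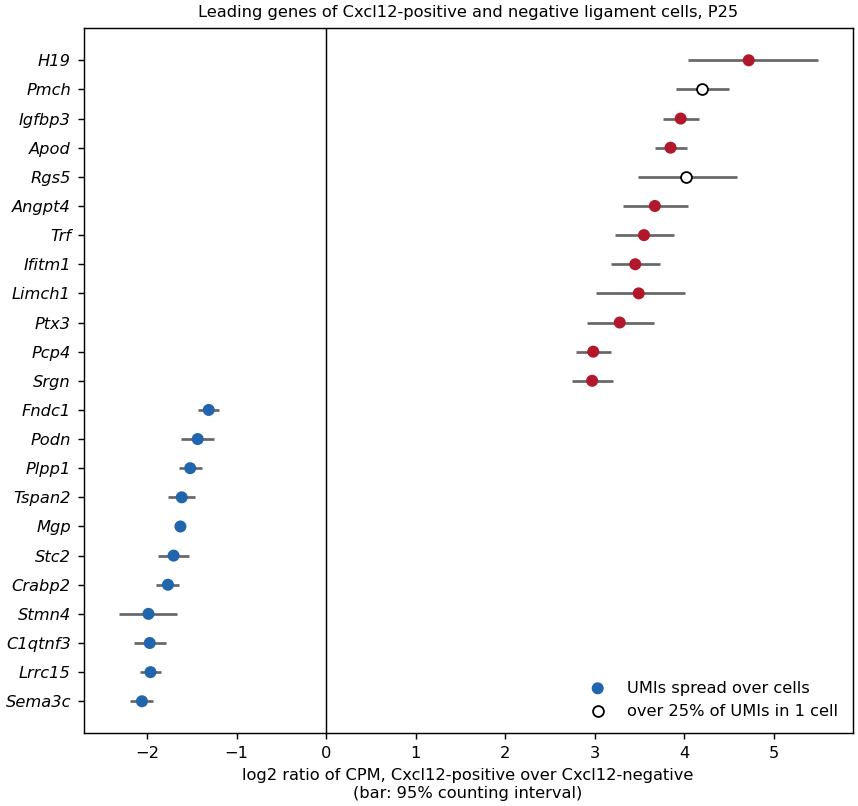
The 12 genes with the highest ratio and 11 of the 12 with the lowest, as log2 of the CPM ratio without a pseudocount; horizontal bars are 95% counting intervals and the zero line marks equal levels. Open circles mark Pmch and Rgs5, for which 1 cell holds over 25% of the UMIs of the higher set.

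The higher side held many secreted regulators. Among genes of insulin-like growth factor signalling, 10 of 12 listed passed. Of these, 4 were more than 2-fold higher, against 141 (2.6%) of all 5430 genes. Igf1, the ligand, was at 1036 CPM in positive and 145 CPM in negative cells, 7.14-fold higher (6.77 to 7.53). It had a UMI in 416 of 470 positive cells and 317 of 572 negative cells. The binding protein gene Igfbp3 was at 321 and 20.6 CPM, 15.6-fold higher (13.6 to 17.9), with 75.0% of its UMIs in the 10% of positive cells that held most. Igfbp4 was at 1521 and 356 CPM and Igf2, a second ligand, at 188 and 59.8 CPM. The receptor gene Igf1r was at 90.8 and 116 CPM, Igfbp5 at 1579 and 995 CPM and Igfbp7 at 954 and 1217 CPM. The 4 genes past 2-fold were thus the ligand genes Igf1 and Igf2 and the binding protein genes Igfbp3 and Igfbp4. Igf1r, Igfbp5 and Igfbp7 were below 2-fold.

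Secreted Wnt antagonists were among the most abundant higher genes. Wif1, which binds Wnt proteins, was at 3069 and 1090 CPM, 2.81-fold higher (2.75 to 2.88). The median positive cell held 22.7 Wif1 UMIs per 10000 and the median negative cell 5.71. Sfrp2, a secreted Wnt-binding protein, was at 1443 and 305 CPM, 4.73-fold higher (4.55 to 4.91). Sfrp1 was at 346 and 336 CPM and Dkk3, a secreted member of the Dickkopf family, at 147 and 271 CPM. The feedback target Axin2 was at 7.32 and 6.55 CPM, under the filter. Of 20 listed Wnt targets and antagonists 7 passed. Wif1 and Sfrp2 were the ones past 2-fold, against 176 (3.24%) of all 5430 genes.

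Genes of the elastic fibre were higher, with 10 of 11 that passed above 0, against 3573 of all 5430 genes, 5 more than 2-fold higher and a median of 0.72. Eln, which encodes elastin, was at 67.5 and 13.8 CPM, 4.88-fold higher (4.09 to 5.86). Mfap4 was at 295 and 59.5 CPM, Fbn2 at 65.3 and 15.7 CPM, Fbln1 at 377 and 108 CPM, and Mfap5 at 41.5 and 11.9 CPM. These encode a microfibril-associated protein, a fibrillin, a fibulin and a microfibril glycoprotein. Ltbp4, which binds latent TGF-beta, was at 139 and 194 CPM. Among 14 non-fibrillar collagen and basement membrane genes, Col8a1 (46.4 and 7.62 CPM), Col4a1 (61.7 and 21.7 CPM) and Col4a2 (48.4 and 16.9 CPM) were the ones past 2-fold.

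The angiopoietins, ligands of the endothelial receptor TIE2, were also higher: Angpt1 was at 48.1 and 9.15 CPM and Angpt4 at 81.2 and 6.37 CPM. Angpt4 had a UMI in 167 positive and 30 negative cells. The transcripts of CXCL12's receptors were scarce in both sets, Cxcr4 at 2.15 and 2.06 CPM and Ackr3 at 16.3 and 19.3 CPM, under the filter of 20 CPM. Bdnf, a neurotrophin gene, was at 44.8 and 11.6 CPM. Tnfsf11, which encodes the osteoclast-inducing ligand RANKL, was at 32.6 and 14.9 CPM. Serping1, which encodes an inhibitor of complement proteases, was at 628 against 297 CPM, and the protease genes C1s1 and C1ra were below 2-fold.

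Of the genes that passed the filter, 2 of 4 in the hedgehog list and 2 of 3 in the Notch list were more than 2-fold higher. In the BMP list 1 of 9 was, against 141 (2.6%) of all 5430 genes. The hedgehog receptor and target Ptch1 was at 59.0 and 25.4 CPM and the co-receptor Gas1 at 609 and 256 CPM, while Gli1 was under the filter at 10.8 and 5.65 CPM. The Notch targets Hes1 and Hey1 were at 50.3 against 14.6 CPM and 46.6 against 20.6 CPM. The BMP antagonist Nog was at 47.7 and 20.1 CPM, and the BMP targets Id1, Id2 and Id3 had ratios from 0.28 to 0.32. With at least 1 Cxcl12 UMI for a positive cell, Ptch1, Hey1 and Nog were below 2-fold. Among 20 mesenchymal transcription factors that passed, Sox9 (88.4 and 25.3 CPM), Nr2f2 (39.3 and 14.5 CPM) and Ebf1 (156 and 72.3 CPM) were more than 2-fold higher and none was more than 2-fold lower. Over all 5430 genes, 141 were higher and 35 lower. Runx2, the osteoblast lineage factor, was at 193 and 180 CPM. Aldh1a3, which makes retinoic acid, was at 60.0 and 11.1 CPM, opposite to the retinoic acid carrier Crabp2.

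Other genes of the 12 highest had diverse known roles. H19, an imprinted long non-coding RNA, was at 42.6 and 1.61 CPM and had a UMI in 80 positive and 10 negative cells. Apod, which encodes a lipid carrier, was at 366 and 25.4 CPM, with 91.5% of its UMIs in the 10% of positive cells that held most. Ptx3, a secreted pentraxin gene, was at 60.1 and 6.19 CPM. Srgn, the gene of an intracellular granule proteoglycan, was at 123 and 15.7 CPM, and Pcp4, a calmodulin regulator gene, at 175 and 22.2 CPM. Trf (transferrin), Ifitm1 and Limch1 were at 89.4, 123 and 39.4 CPM against 7.63, 11.2 and 3.50 CPM.

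**Figure D3:**
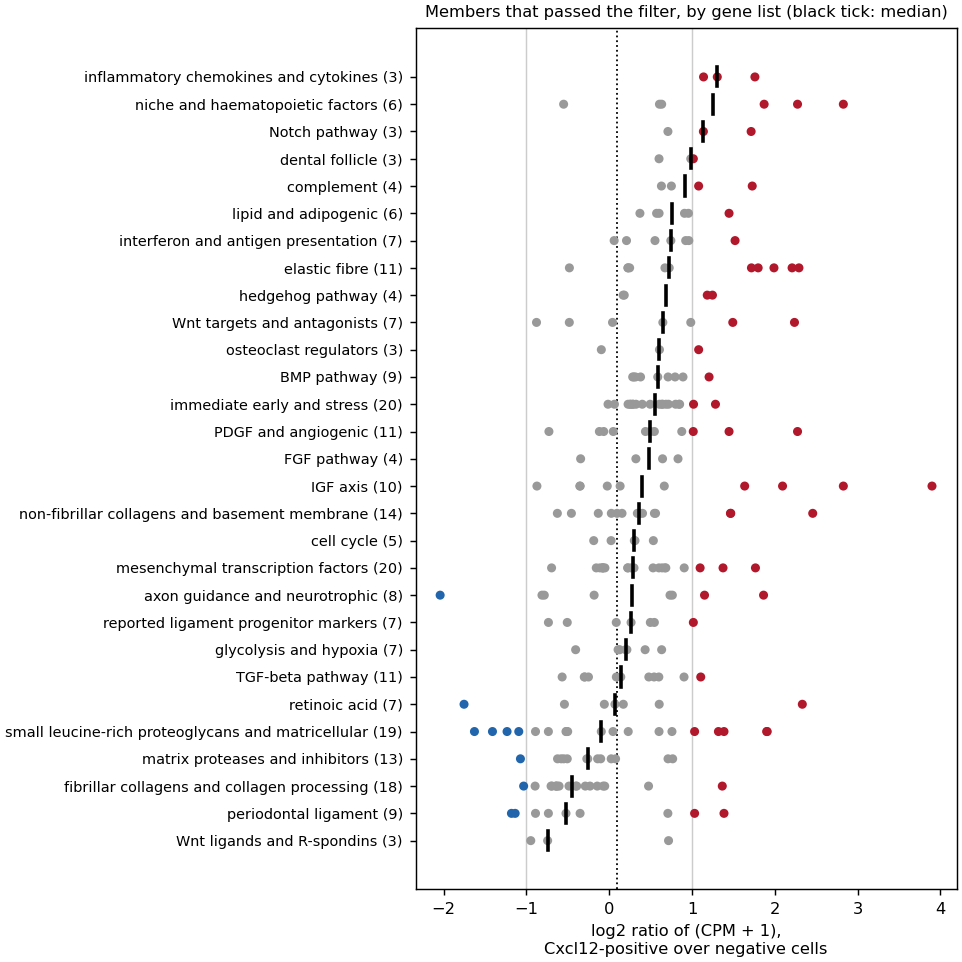
Log2 ratios of (CPM + 1) for the listed genes that passed the filter, 1 point a gene and 1 line a list, with the number of genes in brackets; red and blue points are past 2-fold, black ticks are medians, and the dotted line is the median of all 5430 genes, 0.10. Elastic fibre genes lie to the right, with a median of 0.72, and fibrillar collagen genes to the left, at -0.44.

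Levels were also followed over bins of Cxcl12 UMIs, the count that chose the cells, so the bins are a description. The summed CPM of a bin does not show how levels vary from cell to cell. Whether the change is graded within cells was not tested. From 0 through 1, 2, 3 to 5, 6 to 10 and at least 11 UMIs, in 572, 271, 135, 191, 91 and 53 cells, Postn went from 17558 through 14170, 10896, 8404 and 5146 to 4926 CPM. Igf1 went from 145 through 331, 598, 948 and 1528 to 1488 CPM over the same cells. Sfrp2 was alike at 0 and 1 UMI, at 305 and 329 CPM, and reached 992 CPM at 2 UMIs. Lrrc15 went from 320 through 233, 113, 90.4 and 30.7 CPM, then to 66.2 CPM in the last bin. Apod changed chiefly among the cells richest in Cxcl12, from 113 CPM at 3 to 5 UMIs to 447 CPM at 6 to 10 and 1518 CPM at 11 or more. For all 12 highest and all 12 lowest genes, cells with 1 UMI already lay on the side of the positive cells. An unbroken order over the 6 bins held for 7 of the 12 highest and for 1 of the 12 lowest. The median depth of the last bin was 23690 UMIs, against 17766 to 18768.5 in the others.

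**Figure D4:**
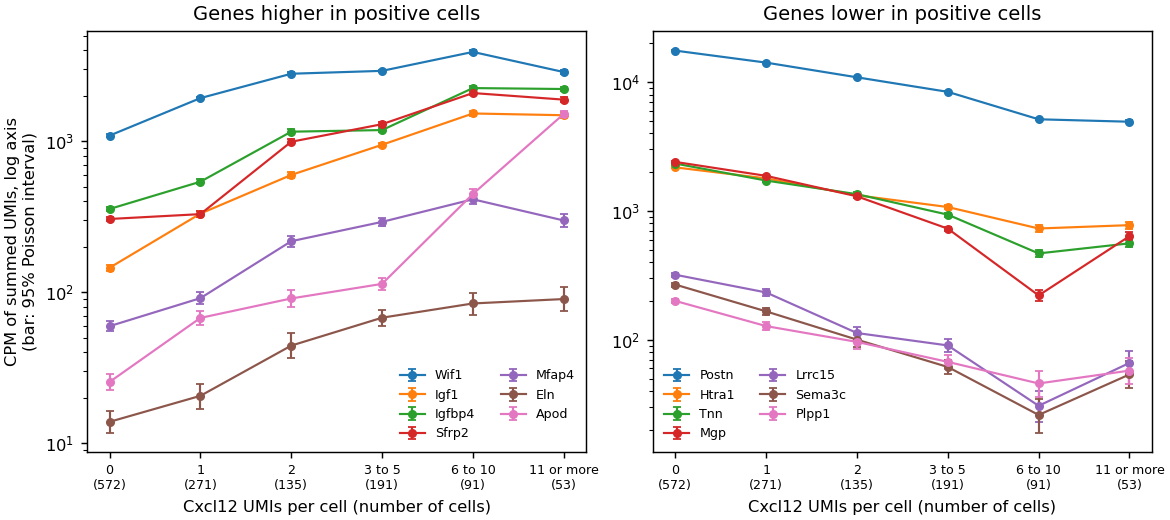
CPM of summed UMIs on a log axis against the number of Cxcl12 UMIs per cell, for 7 genes higher (left) and 7 genes lower (right) in positive cells; bars are 95% Poisson intervals and cell numbers are in brackets. Postn goes from 17558 to 4926 CPM and Igf1 from 145 to 1488 CPM; Tnn, drawn on the right, was used to choose the cells.

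Single cells carried the 2 sides in different mixtures. After thinning to 5000 UMIs, at least 3 of the 12 highest genes were detected in 32.8% of positive cells (28.5 to 37.2), 7.75% of cells with 1 Cxcl12 UMI and 3.51% of negative cells (2.16 to 5.38). At least 3 of the 12 lowest genes were detected in 28.5% of positive cells (24.5 to 32.8), 57.9% of cells with 1 UMI and 75.9% of negative cells (72.2 to 79.4). These genes were chosen on the same cells, so the shares describe how widely each set is spread and are no separate evidence. Macrophages gave 19.3% and 0% (upper bound 1.72%), the first with Trf and Srgn detected in 83.0% and 69.8% of them.

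The division was also compared within cells of like reporter. Among cells with at least 5 GFP UMIs, 172 positive and 401 negative, all 12 highest and all 12 lowest genes kept their direction, and 121 genes (2.27%) were more than 2-fold higher and 21 (0.394%) lower. Of these, 88 were among the 141 and 17 among the 35 called over all cells. Igf1 was there at 504 and 95.6 CPM and Postn at 10611 and 18504 CPM. Among cells with at least 5 tdTomato UMIs, 182 positive and 92 negative, all 24 again kept their direction, with 202 genes (3.65%) higher and 69 (1.25%) lower, of which 114 and 28 were among the 141 and 35. The 24 genes were chosen on these same cells, so their direction here is a description. Igf1 was at 1325 and 167 CPM and Postn at 5930 and 15940 CPM. Among cells with under 5 UMIs of each reporter, 145 positive and 115 negative, 11 of the 12 highest and all 12 lowest did so, with 125 genes (2.27%) higher and 62 (1.13%) lower. The exception was Rgs5, at 9.06 and 9.50 CPM. The levels also differed with the reporter: Sfrp2 in positive cells was at 382 CPM with GFP and 2046 CPM with tdTomato.

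Set beside the 635 outside cells, which had a median depth of 9463 UMIs, the higher genes fell into separate patterns. Of the 12 highest genes, 7 were higher still in the outside cells and 5 lay between the ligament sets. Apod was at 6835 CPM in outside cells, Trf at 2243, Ifitm1 at 1396 and Limch1 at 310 CPM. Igf1, at 547 CPM in outside cells, Sfrp2 at 651, Igfbp4 at 1035, Wif1 at 1959 and Eln at 29.5 CPM were lower there than in positive ligament cells. Per Cxcl12 UMI, positive ligament cells held 1.29 Apod UMIs and outside cells 4.29, whereas for Igf1 the values were 3.67 and 0.343 and for Sfrp2 5.11 and 0.408. All 12 lowest genes were below the negative ligament cells in the outside cells, and 2 of them, Stc2 included, were above the positive ones there.

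**Figure D5:**
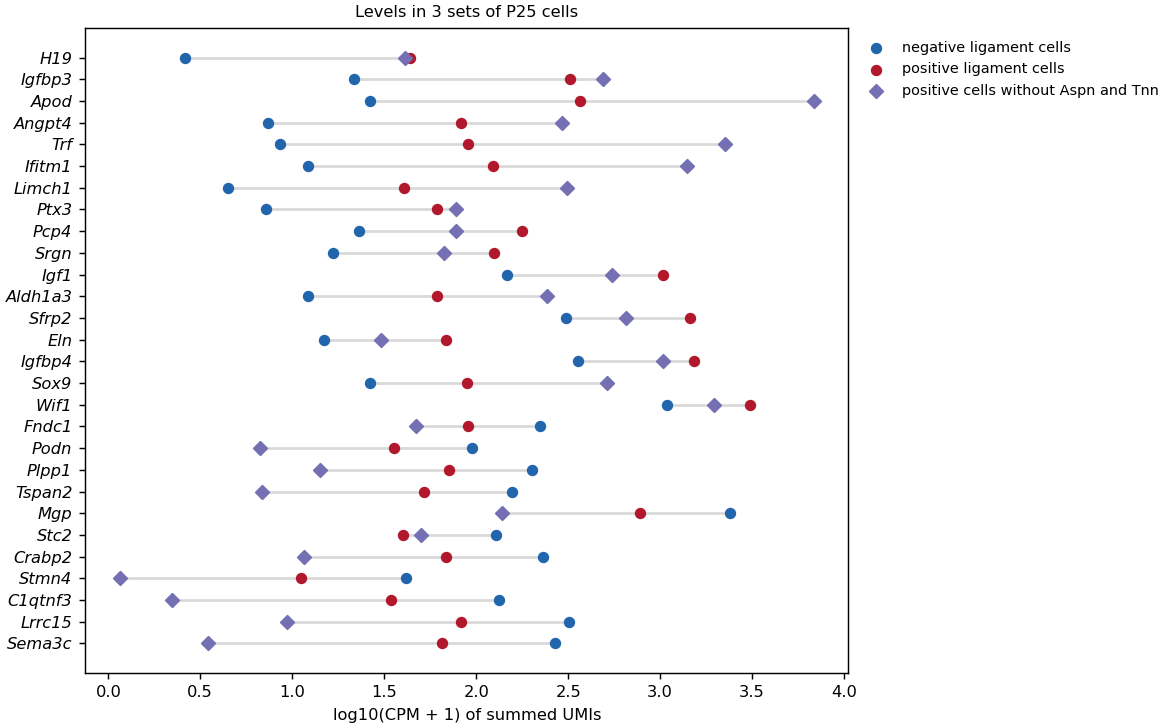
Level of each gene as log10(CPM + 1) in negative ligament cells (blue circles), positive ligament cells (red circles) and Cxcl12-positive cells with neither Aspn nor Tnn (purple diamonds). Apod and Trf are highest in the outside cells, at 6835 and 2243 CPM, while Igf1, Sfrp2 and Wif1 are highest in positive ligament cells, at 1036, 1443 and 3069 CPM.

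Markers of other cell types also differed between positive and negative cells. The rule left out cells with any UMI of Ptprc, Pecam1 or Epcam. Low levels of macrophage and neutrophil, endothelial and epithelial genes therefore follow in part from the choice of cells. Endothelial genes were at or near 0, with none of 10 past the filter, 9.36 and 4.40 CPM in sum, and Cdh5 at 0.215 and 0.0897 CPM. Of 10 macrophage and neutrophil genes 1 passed, with 85.6 and 72.3 CPM in sum. Of 12 mural genes 3 passed, with 1190 and 561 CPM in sum: Rgs5 (45.0 and 2.78 CPM, 48.6% of the positive UMIs in 1 cell), Acta2 (614 and 303 CPM) and Tagln (427 and 217 CPM). The defining smooth muscle gene Myh11 was at 0.323 and 0.0897 CPM. Among cells with at least 5 GFP UMIs Acta2 was lower in positive cells, at 211 and 285 CPM, and the log2 ratio of Tagln was -0.56. The per-cell sum of mural genes, in UMIs per 10000, had a 90th percentile of 33.8 in positive and 14.3 in negative cells.

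Of 14 pulp and papilla genes 5 passed, with 3584 and 1780 CPM in sum, of which Sfrp2 made up most of the difference. Its sum per 10000 UMIs ran from 9.50 to 74.0 (10th to 90th percentile) in positive and from 5.52 to 35.3 in negative cells. Of 14 osteoblast and cementoblast genes 9 passed and 3 were more than 2-fold higher, against 141 (2.6%) of all 5430 genes. They were Bglap (1225 and 413 CPM), Bglap2 (730 and 300 CPM) and Spp1 (290 and 78.5 CPM, 22.8% of the positive UMIs in 1 cell). Sp7, an osteoblast transcription factor, was at 112 and 132 CPM. Bglap UMIs remained in 64.6% of macrophages after thinning, against 67.9% of positive and 59.8% of negative cells. Macrophages are not a known source of Bglap. A share counts cells with any UMI and does not measure the level, and the source of these UMIs was not tested. Bglap2 UMIs remained in 37.3% of macrophages, 54.7% of positive and 38.8% of negative cells. Of 10 marrow stroma genes 3 passed, with 557 and 272 CPM in sum; Lepr was at 17.0 and 3.77 CPM, under the filter, and Adipoq had no UMI in positive cells. Epithelial genes summed to 49.1 and 20.4 CPM. Schwann genes summed to 44.1 and 248 CPM, with 97.0% of the UMIs of negative cells in 5 of them. The share of cells went the other way, with at least 3 UMIs of Schwann genes in 11.7% of positive and 2.27% of negative cells, and S100b, a calcium-binding protein gene not confined to Schwann cells, was at 38.5 and 5.47 CPM.

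Immediate early and stress genes, which dissociation of tissue is known to induce, were above 0 for 19 of 20 genes, against 3573 of all 5430, with a median of 0.55. Nr4a1 (170 and 69.4 CPM) and Dnajb1 (108 and 52.7 CPM) were past 2-fold, and Fosb was at 999 and 553 CPM. A doublet score marked 43 positive cells (9.15%) and 6 negative cells (1.05%) among its highest 256 cells. At least 3 summed UMIs of mural (without Acta2 and Tagln), endothelial, macrophage and neutrophil, Schwann or epithelial markers were found in 242 positive and 132 negative cells. Their part in the results above was measured only by leaving such cells out. Without the cells marked by the doublet score, 139 genes were higher and 38 lower, and 132 and 34 of them were among the 141 and 35. Without the cells with other markers, 112 were higher and 32 lower, and 97 and 25 of them were among the 141 and 35. All 24 leading genes kept their direction under both, and 23 of them stayed past 2-fold without the cells with other markers.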

How the data were processed

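Dissociated molar cells were sequenced as 10x 3' v3 libraries, per the labels' protocols. Raw counts of UMIs, by gene and cell barcode, are what the authors deposited. The submitters' processing notes list build mm10 with Cell Ranger and Seurat. The day 25 matrix carries software version 3.1.0, per the file headers, and alignment settings were not stated there.

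UMIs were summed over the cells of each set and divided by the set's total (9294358 UMIs in positive and 11146972 in negative cells, 5949 to 52325 and 1633 to 43351 per cell) to give CPM. Ratios used log2(CPM + 1), a mean of at least 20 CPM over the 2 sets, and past 2-fold as the call. Intervals (95%) were exact: Poisson for CPM, conditional binomial for ratios and Clopper-Pearson for shares. Thinning drew 5000 UMIs per cell. Doublets were scored against simulated doublets (2 per cell, 50 neighbours) and the highest scores removed at 0.8% per 1000 cells, so their number follows from that rate. In the reported values no doublets were removed. Cells were not treated as replicates, so no p-value was computed. On simulated counts for 5344 genes, 165 of 200 genes changed 4-fold passed the filter, 100% of these were called, and 0 unchanged genes were.

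Named genes were the 12 highest and 12 lowest ratios with at least 50 UMIs over both sets, leaving out haemoglobin, mitochondrial, ribosomal protein, sex-specific and unnamed (Gm, Rik, AC) genes, the constructs and the genes of the rule, and up to 4 genes per list from 39 lists (484 of 485 genes matched). Other genes were named from these lists after their values were seen. The cells and the lists were chosen with earlier results of these data known. Values for a pair of named genes are left out. Coordinates come from GENCODE vM21 (GRCm38). Alternatives changed the Cxcl12 threshold, depth matching, pseudocount, filters, the ligament conditions, doublets, cells with other markers and the reporter class. Software was scipy 1.17.1 and numpy 2.4.6 for counts and intervals, scikit-learn 1.9.0 for doublet scores, and pandas 2.3.3 with matplotlib 3.10.9, run in Python 3.11.15.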

Additional observations from a re-analysis of the deposited data

How the results depend on the processing

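No paired analysis was possible because both sets come from 1 library, and for the same reason no replicate could be left out. With at least 5 Cxcl12 UMIs for a positive cell, 233 genes were higher and 84 lower, GFP was at 30.4% and tdTomato at 44.8% of positive cells. With at least 1 UMI the values were 85, 14, 45.1% and 32.3%. A filter of 5 CPM gave 374 higher and 55 lower genes, and a filter of 50 CPM gave 56 higher. With at least 5 Aspn and 2 Tnn UMIs, tdTomato was at 34.2% of positive cells. Thinning to 5000 UMIs gave 24.5% and 53.8% for GFP in positive and negative cells and 29.1% for tdTomato in positive cells. Within cells with at least 5 GFP UMIs 21 genes were lower, and within cells with at least 5 tdTomato UMIs 69 were lower. Centred on the median of all genes, 120 were higher and 44 lower. In at least 1 setting the sign changed for 18 of 153 single-gene ratios, Tagln, Sfrp4, Spon1, Lyz2, Gli3 and Col15a1 among them, and for 11 of 37 list medians, among them dental follicle, connective tissue fibroblast, axon guidance, retinoic acid, osteoclast regulators and proteoglycans. Of the 81 ratios past 2-fold, and of list medians past 2-fold, signs changed for Cxcl10 (-1.19 with at least 5 Cxcl12 UMIs), Pi16 (-0.57 without cells with other types' markers), Acta2 and the mural median (-0.43 within GFP cells), and the Schwann median (3.11 within tdTomato cells, 2.82 without 3 cells that each carry most of 1 gene, chosen after seeing the data). The within-reporter and centred settings were also added after seeing the data. In the settings run on them, all 24 leading genes kept their direction, and 21 to 24 stayed past 2-fold. Other genes past 2-fold kept their sign but fell below 2-fold in at least 1 setting. Postn, Scx, Ogn, Htra1, Loxl2, Serping1, Dnajb1 and Tnfsf11 were among them. The causes of these shifts were not tested. With 1 library, the spread between animals is not measured.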

Other observations

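Transcripts mapped to the Cre construct were found in 10 of 470 positive cells and 0 of 572 negative cells, which allows a share of up to 0.643%. The same feature had a UMI in 429 of 7517 cells of the Cxcl12-GFP library from day 6, whose labelled genotype carries no Cre. Pi16, a marker of connective tissue fibroblasts under the filter, was at 25.9 CPM in positive and 0.359 CPM in negative cells, with 39.8% of its UMIs in 1 cell. Pmch, which encodes a neuropeptide precursor, was at 169 and 9.24 CPM, with a UMI in 79 positive cells and 25.2% of its UMIs in 1 of them.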
